A study of Mus musculus with 8 samples.

Results

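The myocardium next to an infarct was compared with left ventricular muscle of the same genotype. The comparison sets the WT border zone library against the WT left ventricle library, which are 2 of the 8 bulk RNA sequencing libraries of the series, 1 for each combination of genotype and region. It covers 12999 of the 16994 genes in the deposited count table, those whose mean level reached 1 CPM (counts scaled to library size) over the 8 libraries. The hearts came from male mice. Myocardial infarction was made by permanent ligation of the left anterior descending coronary artery at 16 weeks of age, and the infarct, the border zone around it and the remote zone away from it were taken afterwards. Heart function was imaged 4 weeks after ligation, but the time at which the sequenced tissue was taken is not given in the sources used here. WT animals carry an intact Tigar gene, and TKO animals lack it in the whole body. The left ventricle libraries serve as the reference tissue. Whether those animals had a sham operation is not given in the sources used here. The infarct libraries were made from pooled RNA of 3 mice, and pooling is not stated for the other regions.

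Every value below is a ratio of 1 library over 1 library, so there is no replicate error, no test between the regions and no p-value. Brackets hold the 95% exact (Clopper-Pearson) interval of a ratio, which covers counting error only. The reads carry no molecular identifiers, so they are not independent molecules. A gene is called higher or lower when its level, scaled with the trimmed mean of M values (TMM) over all 8 libraries, differed at least 2-fold after adding a prior count of 2. In pieces of tissue, fewer cells of a type and less RNA per cell cannot be told apart.

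The border zone is living muscle that adjoins scar. Its cardiomyocytes are known to turn back on a set of fetal and stretch-responsive genes, among them the natriuretic peptides and the slow myosin heavy chain, while genes of adult contraction and fat burning are lowered. Around them, resident fibroblasts become matrix-secreting cells marked by periostin and later settle into matrifibrocytes, which keep a mature scar through cartilage- and tendon-type proteins. Monocyte-derived macrophages and neutrophils enter the same tissue from the blood.

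The 2 libraries were of similar depth, with 31571170 counts in the left ventricle and 32245722 in the border zone, and the 8 libraries ranged from 27429240 to 33799249. Transcripts of mitochondrial DNA took 37.6% of counts in the left ventricle and 38.0% in the border zone. Tigar had 1965 counts in the left ventricle and 2215 in the border zone, a ratio of 1.0 [0.943, 1.07], against 51 to 87 in the TKO libraries. The summed level of 6 cardiomyocyte markers was 31580 CPM in the left ventricle and 23298 CPM in the border zone.

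The limit of 2-fold was passed upward in the border zone by 701 of the 12999 genes (5.39%) and downward by 238 (1.83%), or 7.22% either way. The median ratio over all genes was 1.0, and 60.0% of genes lay within 1.25-fold of equality. At least 4-fold separated the libraries for 192 higher and 57 lower genes, and at least 8-fold for 83 higher and 23 lower genes. The counting interval lay wholly on 1 side of equality for 695 of the 701 and 234 of the 238. At the edge of the limit stood Prg4, with 465 counts in the left ventricle and 1048 in the border zone (ratio 2.0, called), and Cd248, with 265 and 598 counts (ratio 2.01, not called after the prior count). The plot of gene levels shows muscle stress, scar fibroblast and neutrophil genes above the upper line and a few fat-handling genes below the lower one.

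**Figure D1:**
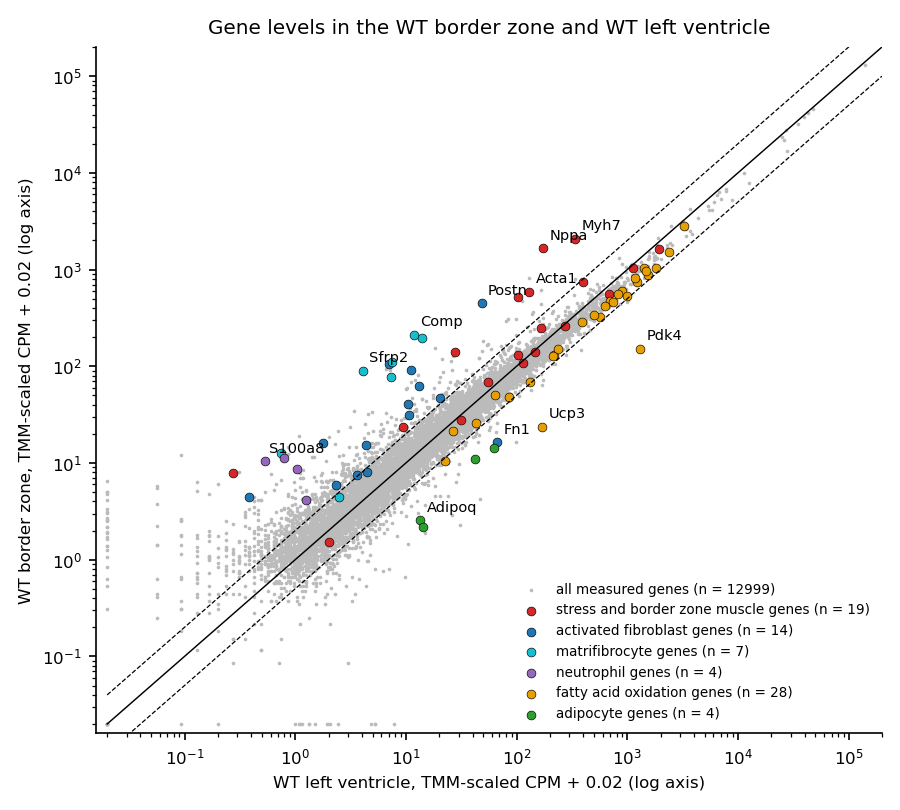
Level of each of 12999 genes in the WT left ventricle (x axis) and the WT border zone (y axis), in TMM-scaled CPM plus 0.02 on log axes. The solid line is equality, dashed lines mark 2-fold, and coloured points are members of 6 gene lists. Nppa and Myh7 reached 1674 and 2081 CPM in the border zone, while Pdk4 lay far below the lower line at 153 CPM.

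Muscle stress genes were among those higher in the border zone. Of 19 genes of the stressed and border zone cardiomyocyte, 7 were at least 2-fold higher and none was lower, against 5.39% and 1.83% of all genes. The list's median ratio was 1.25. The plot of levels by region shows 5 of these genes across all 8 libraries.

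Nppa, which encodes atrial natriuretic peptide, stood at 173 CPM in the left ventricle and 1674 CPM in the border zone, 9.69-fold higher [9.40, 9.98]. It reached 1962 CPM in the remote zone and 2987 CPM in the infarct. The border zone therefore lay below both other WT regions for this gene. Nppb, the B-type natriuretic peptide of ventricular wall stress, went from 103 to 515 CPM, 4.98-fold higher [4.78, 5.18]. Its remote zone level was 338 CPM and its infarct level 332 CPM. The border zone was the highest of the 8 libraries for Nppb.

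Myh7, the slow beta-myosin heavy chain of the fetal ventricle, was 340 CPM in the left ventricle and 2081 CPM in the border zone, 6.12-fold higher [5.99, 6.26]. The remote zone held 839 CPM and the infarct 1155 CPM. Acta1, the skeletal alpha-actin that the fetal heart uses, was 130 CPM in the left ventricle, 414 CPM in the remote zone, 591 CPM in the border zone and 167.5 CPM in the infarct. Its ratio over the left ventricle was 4.53 [4.37, 4.69]. Ankrd1, a titin-bound stretch sensor, was 27.6 CPM in the left ventricle and 141.5 CPM in the border zone, a ratio of 5.14 [4.75, 5.56]. Myh7, Nppb and Acta1 were thus higher in the border zone than in the infarct, by 1.8-fold [1.78, 1.82], 1.55-fold [1.52, 1.59] and 3.53-fold [3.43, 3.63]. Among all genes 10.3% passed 2-fold upward in this border zone over infarct comparison.

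The other members called higher were Uchl1, a deubiquitinase, at 2.53-fold [2.19, 2.93], and Tnni1, the slow troponin I of the fetal heart, with 7 counts in the left ventricle and 243 in the border zone, a ratio of 30.9 [14.8, 77.6]. Xirp2, an actin-binding protein of the intercalated disc, reached 1.86 [1.82, 1.90] and stayed under the limit. Ddit4l had the lowest ratio of the list, 0.744 [0.492, 1.12].

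The left ventricle libraries of the genotypes differed for these genes. Nppb was 398 CPM and Acta1 470 CPM in the TKO left ventricle, several times the WT left ventricle levels given above. Against that library the WT border zone was only 1.29-fold higher [1.26, 1.33] for Nppb and 1.26-fold [1.23, 1.29] for Acta1. Nppa and Myh7 remained 5.99-fold [5.84, 6.14] and 5.21-fold [5.11, 5.32] higher, and Ankrd1 2.40-fold [2.26, 2.55]. Of all genes, 7.91% were at least 2-fold higher in that comparison. Genotype and library cannot be told apart in that comparison.

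Atrial muscle genes were higher together with Nppa, which atria also express. Of 7 atrial genes, 6 were called higher, with a median ratio of 3.85. Myl7, the atrial light chain, had 152 counts in left ventricle, 491 in border zone and 5227 in remote zone. Sln, the atrial calcium pump inhibitor sarcolipin, had 31, 214 and 2461 counts. Summed over the list, the atrial level was 55.2 CPM in the left ventricle, 132 CPM in the border zone and 779 CPM in the remote zone. The part of atrial tissue in the Nppa level was not tested.

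The promoters of 3 of these stress genes are shown because these genes carry the muscle stress result, and a muscle motif was searched in them. Each is the 250 bases before the RefSeq start site, on build GRCm38.p6, written 5′ to 3′ on the gene's strand. Capitals mark CATTCC or its reverse complement, the letters of the TEAD (muscle CAT) motif. The AP-1 letters TGANTCA, searched on both strands, were absent from all 3 windows, and no matches overlapped.
Nppa, chr4:148000472-148000721, plus strand: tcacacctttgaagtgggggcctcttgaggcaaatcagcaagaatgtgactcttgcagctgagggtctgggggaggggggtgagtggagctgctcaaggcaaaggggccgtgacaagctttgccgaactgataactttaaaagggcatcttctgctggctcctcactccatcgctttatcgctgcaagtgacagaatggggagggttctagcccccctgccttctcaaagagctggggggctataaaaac
Myh7, chr14:54994627-54994876, minus strand: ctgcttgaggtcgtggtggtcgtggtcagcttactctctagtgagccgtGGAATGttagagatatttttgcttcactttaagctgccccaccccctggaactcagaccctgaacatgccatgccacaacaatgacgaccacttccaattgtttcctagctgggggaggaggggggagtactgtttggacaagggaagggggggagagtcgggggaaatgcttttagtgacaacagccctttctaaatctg
Acta1, chr8:123894776-123895025, minus strand: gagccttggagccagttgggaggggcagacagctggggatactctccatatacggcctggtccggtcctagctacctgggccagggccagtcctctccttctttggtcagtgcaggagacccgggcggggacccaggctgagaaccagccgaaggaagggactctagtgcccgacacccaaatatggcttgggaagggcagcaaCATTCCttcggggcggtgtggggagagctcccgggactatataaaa

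In Acta1 the match begins 46 bases before the start, in the printed Myh7 window 201 bases before it, and Nppa has none. The window of Nppb holds 1 match, that of Ankrd1 holds 2, and a second RefSeq window of Myh7 holds 0. These windows overlap an annotated transcript and are not printed. Over the 32851 windows of the RefSeq promoter table, 12.6% hold the TEAD letters and 6.75% the AP-1 letters, and over the 12928 windows matched to measured genes 10.8% and 4.62% do. Among 591 windows of 470 genes called higher the shares were 14.0% and 7.11%, and among 190 windows of 143 genes called lower they were 11.6% and 6.84%. Of 23 windows matched to 16 of the 19 stress genes, 6 held the TEAD letters. A match is a run of letters, not a bound site.

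**Figure D2:**
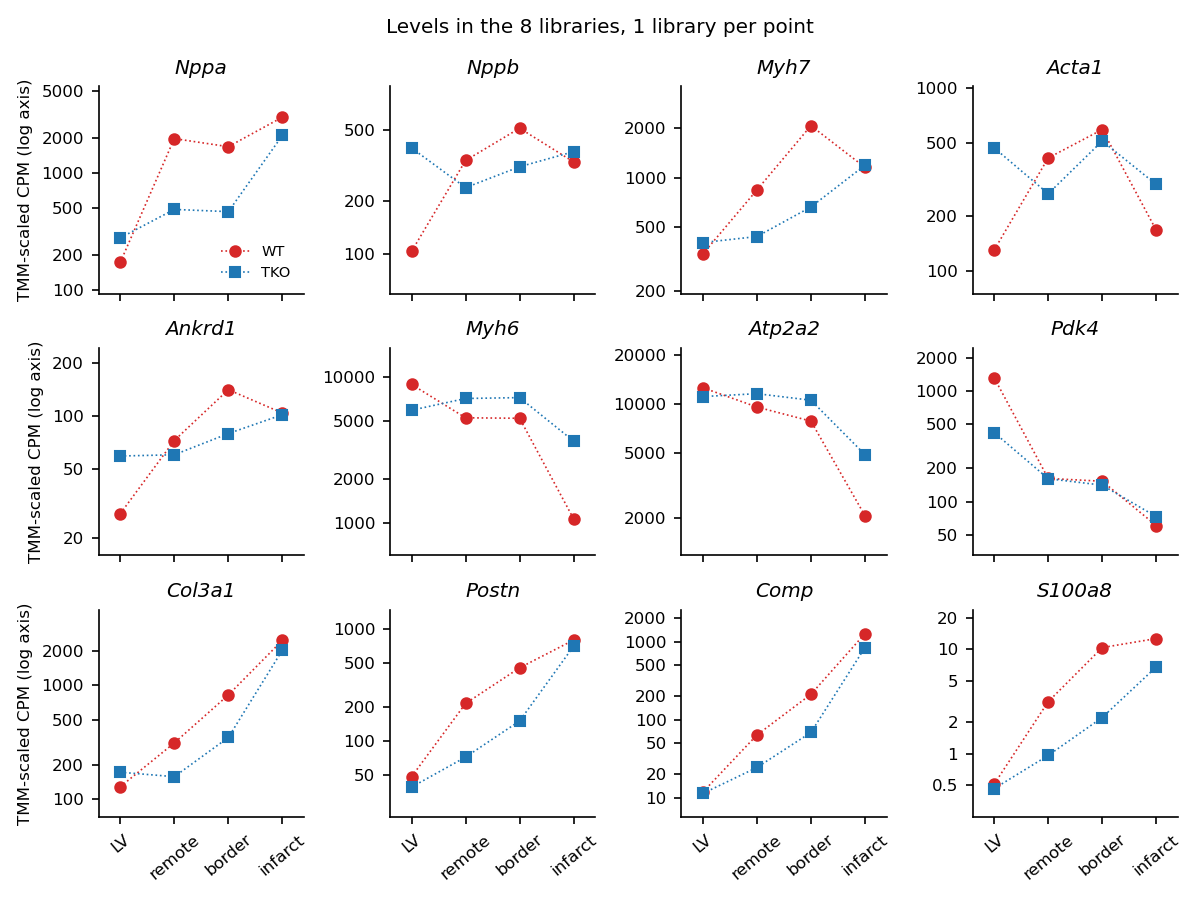
TMM-scaled CPM (log axis, each panel with its own range) of 12 genes in the left ventricle (LV), remote zone, border zone and infarct zone, WT in red circles and TKO in blue squares, 1 library per point. Dotted lines join the libraries of 1 genotype and carry no error. Nppb, Myh7, Acta1 and Ankrd1 are highest of all 8 libraries in the WT border zone, and Col3a1, Postn and Comp climb from left ventricle to infarct in WT.

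Genes of the adult contractile apparatus were moderately lower without any member passing 2-fold. Among 21 sarcomere genes, 19 had ratios below 1 and none was called, and the median ratio was 0.830. Myh6, the fast alpha-myosin heavy chain of the adult mouse ventricle, had a ratio of 0.587 [0.583, 0.590], from 8921 to 5234 CPM. The ratio was 0.678 [0.672, 0.685] for Tnni3, cardiac troponin I, and 0.770 for both Tnnt2 [0.763, 0.776] and the giant spring protein titin (Ttn) [0.763, 0.777]. Nebl had the highest ratio of the list, 1.13 [1.09, 1.17]. In the infarct, 20 of the 21 were at least 2-fold lower.

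The calcium cycling list was mixed. Of 15 measured genes 1 was higher and 1 lower. The sarcoplasmic reticulum pump Atp2a2 had a ratio of 0.626 [0.622, 0.629], the release channel Ryr2 0.675 [0.662, 0.688], and the pump inhibitor Pln 0.845 [0.839, 0.851]. Hrc, which buffers calcium inside the reticulum, was called lower at 0.478 [0.468, 0.487]. Fkbp1b, a ryanodine receptor partner, was called higher on 11 and 51 counts, at 4.12-fold [2.12, 8.77].

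Ion channel genes had a median ratio of 0.739, with 17 of 22 below 1. Kcnv2, a modifying potassium channel subunit, was the only one called lower, at 0.376 [0.314, 0.448]. Kcnip2 and Kcnd2, the subunits of the fast transient outward current, stood at 0.618 [0.592, 0.645] and 0.720 [0.633, 0.819]. Kcna4, the slow transient outward channel, and Kcne1 were called higher at 2.57-fold [1.5, 4.59] and 2.26-fold [1.68, 3.06]. Gja1, the gap junction protein connexin 43, was 1.69 [1.63, 1.76], but its level was 145 CPM in the WT left ventricle and 422 CPM in the TKO left ventricle, and the WT border zone value of 245 CPM lies between these. None of 16 intercalated disc genes and none of 15 cardiac transcription factor genes was called, with Nkx2-5 at 0.970 [0.906, 1.04] and Gata4 at 1.18 [1.11, 1.25].

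Fat oxidation genes lay on 1 side throughout. All 28 measured fatty acid oxidation genes had ratios below 1, with a median of 0.629, and 3 were called lower. Pdk4, the kinase that shuts off glucose entry into mitochondria, had the largest difference, from 1312 CPM in the left ventricle to 153 CPM in the border zone, a ratio of 0.116 [0.113, 0.120]. Ucp3, the muscle uncoupling protein, went from 171 to 23.7 CPM, a ratio of 0.138 [0.128, 0.150].

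The enzymes of the pathway itself had ratios nearer to 1. Cpt1b, which admits fatty acids to the mitochondrion, was 0.670 [0.655, 0.685], the dehydrogenase Acadm 0.666 [0.656, 0.676] and the trifunctional protein subunit Hadha 0.572 [0.564, 0.580]. Among 16 measured PPAR-alpha target genes, a list put together after these values were seen, 6 were called lower, none was higher and the median was 0.566. It includes Angptl4, an inhibitor of lipoprotein lipase, at 0.219 [0.186, 0.257] and the acyl-CoA thioesterase Acot1 at 0.263 [0.226, 0.304].

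The left ventricle library was high for several of these genes. In the TKO left ventricle Pdk4 was 420 CPM and Ucp3 73.6 CPM, and the WT border zone was 0.363-fold [0.351, 0.376] and 0.322-fold [0.295, 0.351] of those. The WT remote zone held 162 CPM of Pdk4 and 28.6 CPM of Ucp3, close to the border zone. Adipocyte genes were lower together with them. All 4 measured adipocyte genes were called lower, with a median ratio of 0.210, among them adiponectin (Adipoq), with 370 counts in the left ventricle and 79 in the border zone, and the protease adipsin (Cfd), with 1144 and 337. The brown fat uncoupling protein gene Ucp1 stood at 112 counts in WT left ventricle tissue, against 2 for the border zone and 0 to 3 elsewhere. The summed adipocyte marker level was 30.5 CPM in the WT left ventricle, 5.0 CPM in the border zone and 0.463 to 6.26 CPM in the other 6 libraries. The part of fat tissue in the lower values was not tested.

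The respiratory chain was lower to a smaller extent. Of 82 nuclear-encoded genes, 80 had ratios below 1, with a median of 0.780. The only one called, Ndufa9, had 36 counts in the left ventricle and 0 in the border zone, and between 0 and 458 in the others. Sdha of complex II was 0.652 [0.643, 0.661], Cox4i1 of complex IV 0.697 [0.688, 0.707] and Ndufs1 of complex I 0.732 [0.717, 0.747]. The 13 genes of mitochondrial DNA had a median of 0.941, or 1.03 with total-count scaling, none called, with COX2 lowest at 0.594 [0.592, 0.596]. For mitochondrial ribosomal proteins the median was 0.861. In ketone and branched-chain amino acid use the median was 0.684, with 15 of 16 below 1 and Bdh1, the first enzyme of ketone oxidation, the exception at 1.43 [1.36, 1.5].

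Glycolysis showed no common direction, with 10 of 24 genes above 1 and 14 below and a median of 0.901. Slc16a3, the lactate exporter, was called higher at 3.43-fold [2.60, 4.59], and Pfkfb1 lower at 0.400 [0.339, 0.470]. Ppargc1a, the coactivator of mitochondrial biogenesis, had a ratio of 0.884 [0.838, 0.932].

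Extracellular matrix genes were higher in several lists. Of 35 measured collagen genes, 16 were called higher and 2 lower, with a median of 1.8. Col3a1, which forms the fine fibres of early scar, went from 129 to 823.5 CPM, 6.40-fold [6.18, 6.63], and the chains of type I collagen, Col1a1 and Col1a2, were 3.66-fold [3.50, 3.83] and 4.22-fold [4.06, 4.39] higher. The fibre-associated Col12a1 was 10.2-fold [8.22, 12.7], the short-chain Col8a1 5.68-fold [5.20, 6.21] and Col8a2 17.9-fold [12.3, 26.9] higher, the last on 29 and 583 counts. Col11a2 and Col6a6 were lower, at 0.381 [0.226, 0.625] and 0.442 [0.343, 0.568].

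Activated fibroblast genes were nearly all higher. Of 14 members 12 were called higher and 1 lower, with a median of 3.73. Postn, the periostin of injury-activated fibroblasts, was 48.2 CPM in the left ventricle and 450 CPM in the border zone, 9.33-fold higher [8.82, 9.88]. The remote zone held 217 CPM and the infarct 795 CPM of it. Cthrc1, a collagen triple helix protein of activated fibroblasts, was 12-fold [6.33, 25.6] higher on 10 and 135 counts, the TGF-beta binding protein Ltbp2 15.1-fold [13, 17.5], the collagen cross-linking oxidase Lox 3.92-fold [3.45, 4.47] and the transcription factor Meox1 2.93-fold [2.57, 3.36]. Fn1, the fibronectin of provisional matrix, was the member called lower, from 66.4 to 16.4 CPM, a ratio of 0.246 [0.223, 0.272]. The remote zone was lower still, at 12.5 CPM, and the infarct held 67.0 CPM.

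Matrifibrocyte genes had the highest median of the matrix lists, 14.7. Of 7 members, 6 were called higher, and Chad was at 1.79 [1.33, 2.44]. Comp, the cartilage oligomeric matrix protein, was 11.8 CPM in the left ventricle, 63.7 CPM in remote tissue, 212 CPM at the border and 1272 CPM in the infarct, 18-fold higher [16.1, 20.2] in the border zone than in the left ventricle. The secreted Wnt modulator Sfrp2 was 22.3-fold [18.4, 27.2] higher, the thrombospondin Thbs4 14.7-fold [12.8, 17], and the cartilage intermediate layer protein Cilp 14.2-fold [12.8, 15.8]. By contrast, 13 genes of resting fibroblasts had 2 called higher and a median of 1.57, with the lineage markers Pdgfra at 1.20 [1.10, 1.31] and Tcf21 at 1.83 [1.55, 2.17].

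Other matrix groups followed. Of 22 matricellular genes, 13 were called higher and none lower, among them Ccn2, a connective tissue growth factor, at 3.14-fold [3.0, 3.27] and Ccn5 at 12.8-fold [11, 14.8]. Of 11 small leucine-rich proteoglycan genes, which organise collagen fibrils, 6 were higher and none lower, led by Fmod at 10.4-fold [9.03, 12.1]. Of 23 cross-linking and processing enzymes, 8 were higher and none lower, while the collagen chaperone Serpinh1 was 0.755 [0.724, 0.787]. Of 17 metalloproteinase and inhibitor genes, 9 were higher and none lower, including the inhibitor Timp1 at 9.19-fold [6.83, 12.6] and the proteases Mmp3 at 7.0-fold [5.81, 8.50] and Mmp2 at 3.64-fold [3.43, 3.86].

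Signalling genes were also listed. Of 23 TGF-beta pathway genes, 3 were called higher: Tgfb2 at 2.83-fold [2.41, 3.33], Tgfb3 at 2.93-fold [2.59, 3.32] and Ltbp2, given above. Tgfb1 was 1.24 [1.12, 1.36]. Of 10 measured secreted Wnt inhibitor and target genes 6 were higher, with a list median of 4.93, and 1, Sfrp5, lower, at 0.173 [0.0649, 0.394] on 36 and 7 counts. Acta2, the smooth muscle actin of myofibroblasts and vessel walls, stood at 79.8 CPM in the left ventricle and 80.3 CPM in the border zone, a ratio of 1.01 [0.950, 1.07], and at 290 CPM in the infarct.

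**Figure D3:**
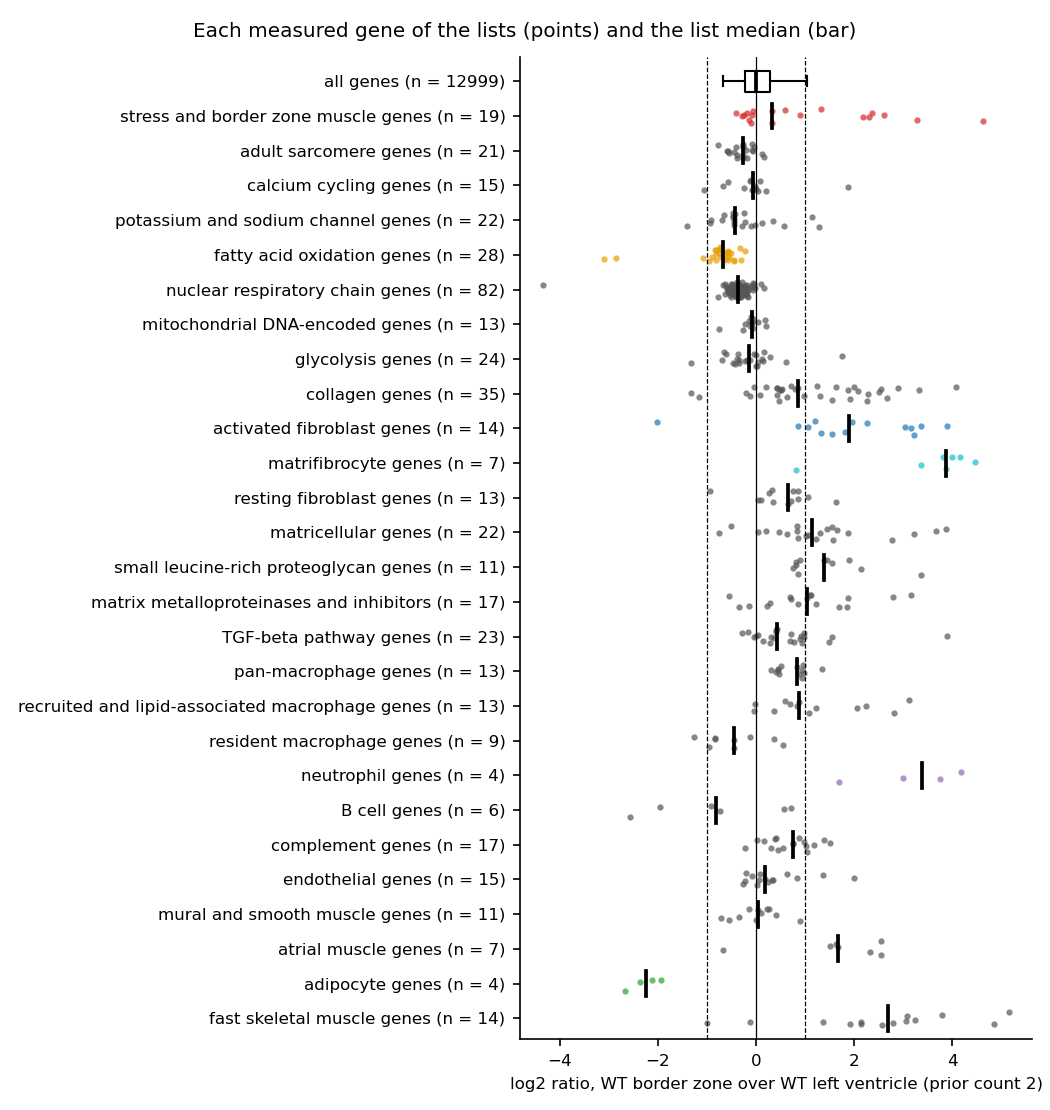
The log2 ratio of each measured gene (points, prior count 2) in 27 lists, WT border zone over WT left ventricle, with the list median as a black bar and dashed lines at 2-fold. The box at the top gives the median, quartiles and 5th to 95th percentiles of all 12999 genes. Among the medians right of the upper limit are those of the matrifibrocyte, neutrophil, activated fibroblast and fast skeletal muscle lists, and the adipocyte median lies left of the lower one.

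Macrophage lists differed in their counts. All 13 measured pan-macrophage genes had ratios above 1, with a median of 1.8 and 1 called, while Csf1r, the receptor for the macrophage growth factor, was 1.39 [1.30, 1.5]. Of 13 genes of recruited and lipid-associated macrophages 6 were called higher: the monocyte chemokine receptor Ccr2 at 4.83-fold [3.71, 6.37], Lgals3, which encodes galectin-3, at 4.22-fold [3.56, 5.02], Gpnmb at 2.34-fold [2.04, 2.68], the lipid receptor Trem2 at 2.16-fold [1.55, 3.04], Chil3 at 9.72-fold [5.62, 18.2] and Arg1 at 8.30-fold [4.17, 18.8]. The last was on 9 and 84 counts. Resident macrophage genes had a median of 0.734, with only Vsig4 called lower, at 0.395 [0.221, 0.683]. Timd4 at 0.496 [0.304, 0.796] and the scavenger receptor Cd163 at 0.558 [0.495, 0.628] were not called. Of the 9 resident genes 7 had ratios below 1, but against the TKO left ventricle the list's median was 1.27 with none called.

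Neutrophil genes were all called higher, 4 of 4, with a median of 11.5. S100a8 and S100a9, the calprotectin subunits, had 14 and 21 counts in the left ventricle and 321 and 346 in the border zone, ratios of 20.4 [12, 37.7] and 14.7 [9.44, 24.0]. Their infarct counts were 538 and 681. The growth factor receptor Csf3r was 8.42-fold [5.69, 12.9] higher. Among 29 measured chemokines and receptors 6 were higher and 4 lower. Cxcl5, a neutrophil attractant, had 8 counts in the left ventricle and 247 in the border zone, 27.5-fold [13.7, 64.3], and Ccl8 was 5.16-fold [3.49, 7.88] higher. Ccl3, Ccl4, Cxcl2 and Cxcl13 were lower, with ratios from 0.110 to 0.249. Ccl3 had 409 counts in left ventricle, 17 in remote zone and 57 in border zone.

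Lymphocyte genes went different ways. In the B cell list 2 of 6 were called lower, with Ighm, the immunoglobulin M heavy chain, at 2706 and 510 counts, a ratio of 0.168 [0.152, 0.184], and the surface protein Ms4a1 at 57 and 15 counts. Of 8 measured immunoglobulin constant region genes, a list made after its values were seen, 3 were called higher and 1, Ighm, lower, with a median of 1.57. The higher ones include Igha at 500 and 4774 counts, 8.49-fold higher [7.74, 9.33], and Ighg2b at 66 and 661, 8.91-fold [6.91, 11.7]. Ighm had 210 counts in the TKO left ventricle. Against that library 5 of the 6 B cell genes were called higher in the WT border zone and none lower, with a median of 3.49. In the TKO border zone over the TKO left ventricle all 6 had ratios above 1, with 2 called higher. The B cell median over the WT left ventricle was 0.556, and it did not stay below 1 in all processing settings. Of 17 complement genes 5 were called higher, among them C4b at 2.26-fold [2.08, 2.46]. None of 11 antigen presentation genes and none of 17 interferon-stimulated genes was called in either direction, with medians of 1.17 and 1.31.

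Calls varied among the blood vessel lists, beside 5.39% higher and 1.83% lower over all genes. Of 15 endothelial genes, 2 were called higher, Plvap at 2.59-fold [2.23, 3.02] and the tip cell gene Esm1 at 4.13-fold [2.84, 6.18], while Pecam1 was 0.952 [0.914, 0.992] and Kdr, the main receptor for vascular endothelial growth factor, 0.854 [0.818, 0.891]. None of 11 mural cell genes was called. Of 6 lymphatic endothelial genes 3 were called higher and none lower, with a median of 1.79: the lymphatic chemokine Ccl21a at 2.43-fold [2.14, 2.75], the membrane protein Pdpn at 2.31-fold [1.73, 3.13] and Mmrn1 at 2.15-fold [1.76, 2.64]. Lyve1, a hyaluronan receptor of lymphatic vessels, had a ratio of 0.559 [0.501, 0.622]. Of 19 proliferation genes 5 were higher, all on fewer than 200 counts, and Mki67 was 1.6 [1.33, 1.93]. Hypoxia response genes had a median of 1.01, from 0.928 to 1.11 over the other settings, with none called. The stress cytokine Gdf15 was 2.33-fold higher [1.94, 2.80] and Chac1, which degrades glutathione, lower at 0.314 [0.254, 0.387].

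Several other called genes belong to none of these lists and were chosen after their values were seen. The acute phase gene Saa3 had 23 counts in the left ventricle and 449 in the border zone, 17.4-fold [11.4, 27.7]. Angptl7 was 14.1-fold [12.1, 16.4] higher, the thyroid hormone activating deiodinase Dio2 9.61-fold [7.12, 13.3], the NADPH oxidase Nox4 9.22-fold [6.98, 12.4] and the elastin gene Eln 3.56-fold [3.27, 3.87]. On the lower side stood the heat shock protein Hsph1 at 0.188 [0.156, 0.226], the stress-induced Herpud1 at 0.391 [0.377, 0.404] and the muscle ribosomal protein Rpl3l at 0.469 [0.451, 0.487]. Against the TKO left ventricle the WT border zone ratios of these 3 were 0.494, 0.986 and 0.408. The higher genes ranged there from 3.43 for Eln to 25.2 for Saa3. In the TKO pair the ratios were 1.40 for Hsph1, 1.24 for Herpud1 and 0.804 for Rpl3l.

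Skeletal muscle genes were present in the border zone. In a list chosen after the values were seen, 12 of 14 genes of fast skeletal muscle were called higher, with a median of 7.03. The fast myosins Myh4 and Myh1 each had 3 counts in the left ventricle, and 193 and 157 in the border zone, ratios of 57.2 [19.3, 280] and 46.5 [15.6, 228]. They reached 1486 and 1263 counts in WT infarct tissue and 1 to 10 in WT remote tissue and all 4 TKO libraries. The fast calcium pump Atp2a1 had 32 counts in the left ventricle, 263 in the border zone and 1874 in the infarct. Acta1, which skeletal muscle also expresses, had 18211 counts in the border zone and 7087 in the infarct. The part of skeletal muscle in these values and in those of the other stress genes was not tested.

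The WT remote zone and infarct can be set over the same left ventricle library, so the 3 comparisons are not independent. In the remote zone 3.40% of all genes were called higher and 2.08% lower, or 5.49% either way, and in the infarct 18.8% and 14.8%, or 33.6%. Of the 35 collagen genes, those called higher numbered 9 for remote, 16 for border and 27 for infarct tissue. For the 14 activated fibroblast genes these counts were 7, 12 and 13. Of the 28 fatty acid oxidation genes those called lower numbered 2, 3 and 26. The border zone level lay above the remote zone and below the infarct for 540 of the 701 higher genes, and below the remote zone and above the infarct for 82 of the 238 lower genes. Directly over the remote zone, 2.35% of all genes were called higher and 1.08% lower in the border zone.

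The level can be put as a percent of the way from left ventricle to infarct, in CPM. Both ends also chose the gene groups, so these values are a description. For genes 8-fold or more higher in the infarct (n = 227) the border zone median was 23.8% (quartiles 17.1% and 30.8%) and the remote zone median 10.1%. For genes 4- to 8-fold higher (n = 573) these were 20.4% and 11.3%, and for genes 2- to 4-fold higher (n = 1495) 23.4% and 13.4%. For genes at least 4-fold lower in the infarct (n = 324) the border zone stood at 46.0% (quartiles 36% and 57.1%) and the remote zone at 31.3%. For genes 2- to 4-fold lower (n = 1597) the border zone stood at 32.0% (quartiles 18.55% and 45.6%) and the remote zone at 18.1%. The figure depends on the scaling. With total counts in place of TMM the first of these medians was 14.7%, while that of the genes at least 4-fold lower was 46.8%. For genes 2- to 4-fold lower it was 35.9%, with wider quartiles of 8.11% and 69.8%.

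**Figure D4:**
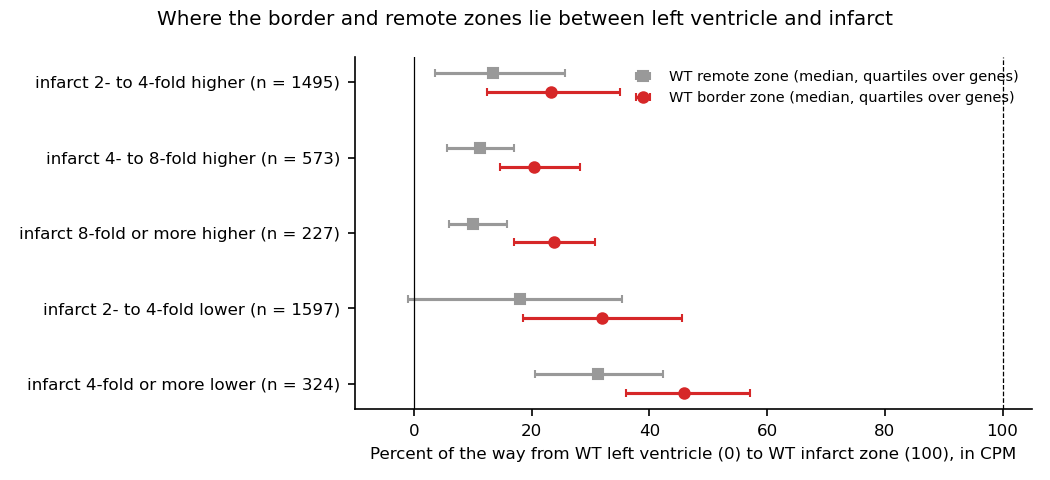
Percent of the way from the WT left ventricle (0) to the WT infarct (100), in TMM-scaled CPM, for genes grouped by their infarct ratio. Red circles are the WT border zone and grey squares the WT remote zone, each the median with quartiles over genes, which are not replicates. The border zone median lies between 20.4% and 23.8% for the higher groups, at 32.0% for the genes 2- to 4-fold lower and at 46.0% for the lowest group.

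The same measure differed among the lists, whose measured members were all kept. The medians of the collagen, activated fibroblast, matricellular and proteoglycan lists lay between 23.6% and 25.3%, that of the pan-macrophage list at 19.7%, and that of the 4 neutrophil genes at 57.9%. The remote zone medians of these lists ran from 7.31% for collagen to 16.5% for neutrophil genes. Fatty acid oxidation genes stood at 46.8% for the border and 32.0% for the remote zone. For sarcomere genes the values were 22.5% and 22.4%, for intercalated disc genes 21.5% and 25%, and for calcium cycling genes 5.7% and 14.97%. Quartiles of the calcium cycling list overlapped widely, at -2.86% and 31.3% for the border zone and -6.65% and 29.0% for the remote zone. Those of the disc list also overlapped, at 11.3% and 28.2% for the border zone and 11.1% and 48.3% for the remote zone. Only 95 of the 701 higher genes had a higher level in the border zone than in the infarct. Of those, 35 were at least 1.5-fold above it with 100 counts or more in the border zone. They include Myh7, Nppb and Acta1 from above, and Synpo2l, an actin-binding protein of the sarcomere, with 2.07-fold [1.99, 2.15] over the left ventricle. The glycogen-targeting phosphatase subunit Ppp1r3c had 2.55-fold [2.41, 2.70] and the transferrin receptor Tfrc 2.47-fold [2.21, 2.76]. Against the TKO left ventricle the WT border zone ratios were 2.0 [1.92, 2.09] for Synpo2l, 1.17 [1.12, 1.22] for Ppp1r3c and 0.786 [0.725, 0.852] for Tfrc. In the TKO pair these 3 genes had ratios of 1.23, 0.992 and 0.693.

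The TKO border zone over TKO left ventricle is a second pair that shares no library with the first and differs from it in genotype. In that pair 569 genes were called higher (4.38%) and 219 lower (1.68%). The overlap was 197 genes higher in both, which is 28.1% of the WT list and 34.6% of the TKO list, and 26 genes lower in both, 10.9% and 11.9%. Of the 701 genes higher in WT, 561 had a ratio above 1 in TKO and 42 were called lower there. Of the 238 lower genes, 120 had a ratio below 1 in TKO and 33 were called higher.

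Of the 16 collagen genes called higher in WT, 11 were called higher in both. The count was 8 of 12 for activated fibroblast, 6 of 6 for matrifibrocyte and 4 of 4 for neutrophil genes. Other lists had fewer: 5 of 13 for matricellular, 2 of 5 for complement, and 1 of 6 for both proteoglycan and atrial genes. For recruited and lipid-associated macrophage genes it was 0 of 6, and for proliferation genes 0 of 5. The TKO ratios were 2.02 [1.95, 2.09] for Col3a1, 3.88 [3.63, 4.16] for Postn, 6.06 [5.36, 6.88] for Comp and 4.80 [2.57, 9.76] for S100a8. Of the stress list only Uchl1 was called higher in both. The TKO ratios were 1.67 [1.63, 1.72] for Nppa, 1.65 [1.61, 1.69] for Myh7, 1.09 [1.06, 1.12] for Acta1 and 0.783 [0.761, 0.806] for Nppb. Pdk4 was lower in both, at 0.335 [0.323, 0.347] in TKO, and Fn1 was 1.02 [0.946, 1.09] there. With 1 library per group, the difference between the genotypes was not tested.

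**Figure D5:**
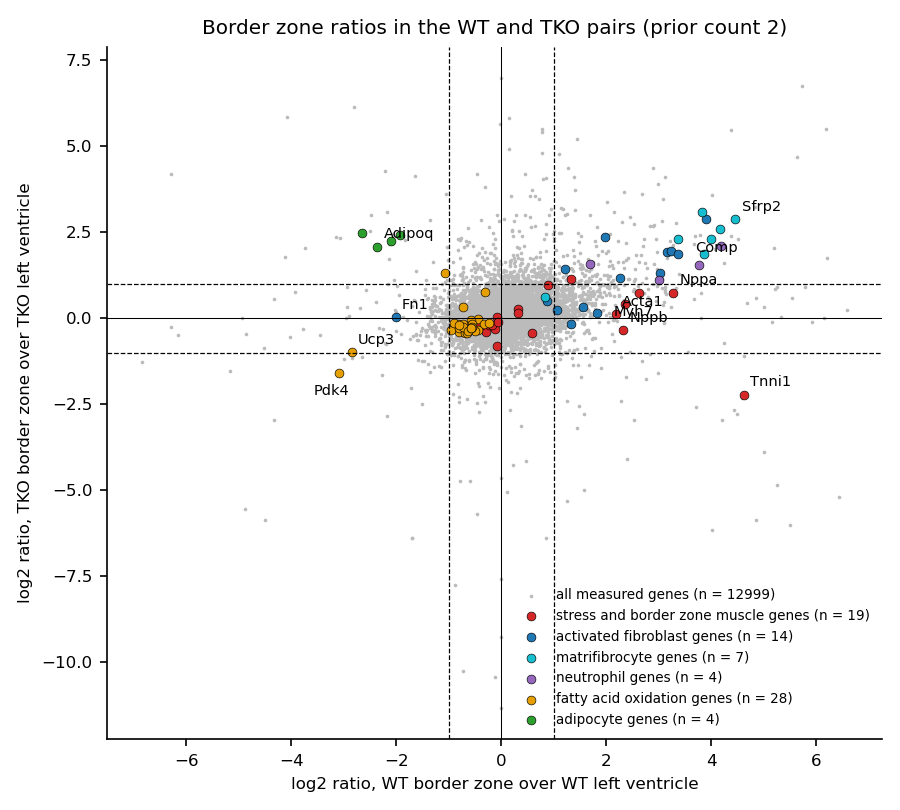
The log2 ratio of each of 12999 genes in the WT pair (x axis) and the TKO pair (y axis), border zone over left ventricle with a prior count of 2, and dashed lines at 2-fold. Coloured points are members of 6 gene lists. Of the 7 matrifibrocyte genes 6 lie right of and above the limits, Nppb, Acta1, Myh7 and Nppa lie right of the limit but between the horizontal ones, and the 4 adipocyte genes lie at the upper left.

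Some of the extreme ratios come from genes whose estimate switched off between libraries. There were 194 measured genes with 3 counts or fewer in at least 1 library and 100 or more in another, and they made up 102 of the 701 higher and 24 of the 238 lower genes. Itsn2 had 0 counts in the left ventricle and 200 in the border zone, at least 59.3-fold higher against a floor of 3 counts there, and Fbrs had 214 and 0. Akap13 had 0 counts in 4 of the other libraries as well. These genes filled most of the 15 highest ratios among genes with 100 counts or more, and they are given here as values only. Without them the 15 highest genes included Sfrp2, S100a8, Comp, Col8a2, Saa3, Cilp2, Ltbp2, Thbs4 and Cilp, and the lowest 15 included Pdk4, Ucp3, Pck1, Ccl3 and Ighm.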

How the data were processed

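Total RNA of 8 mouse heart tissue libraries was sequenced. Per the labels and the study's methods, the authors trimmed reads with Trim Galore 0.6.5, quantified transcripts with kallisto 0.46 against an mm10 transcriptome and summed them per gene, with edgeR 3.34.1 named for later steps. The deposited values are estimated counts per gene, given as whole numbers and not normalized. Reads of near-identical or overlapping genes are divided by that estimation. Of 16994 rows, 153 have no symbol and were named by Ensembl identifier.

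From these counts, TMM factors were computed over all 8 libraries on genes whose mean reached 1 CPM (edgeR 4.0.16). Ratios used the TMM-scaled totals, with exact 95% intervals (scipy 1.17.1), a prior count of 2 for calls, a limit of 2-fold and a floor of 3 counts. Ratio code was tested on simulated data. Total-count, DESeq2 1.42.0, 2-library and mitochondria-free scalings, 3 filters, prior counts of 0.5 and 10 and a limit of 1.5-fold were tried. With 1 library per side no test was made. The members and the 50 gene lists were chosen with earlier results of these data known, and 3 further lists after seeing their values. Genes were named if they were core members or the highest or lowest of a list, if they were among the 15 highest or 15 lowest ratios with 100 counts or more in 1 of the libraries, or Tigar. The rest were chosen after their values were seen. Sequences are from RefSeq (GRCm38.p6). Some named genes are not reported here.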

Additional observations from a re-analysis of the deposited data

Results flagged for a closer look

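For 13 named genes the WT and TKO pairs went in opposite directions by at least 2-fold each. With 1 library per group the difference between the pairs was not tested. Among genes higher in the WT border zone, the WT ratio was 30.9 for Tnni1, the slow troponin I, where the TKO ratio was 0.116 [0.0129, 0.501], on 15 and 2 counts. It was 27.5 for the chemokine Cxcl5 (TKO 0.140), 32.7 for the glycogen phosphatase subunit Ppp1r3b (TKO 0.197) and 166.8 [45.8, 1382] for ENSMUSG00000092329 on 2 and 375 counts, where the TKO ratio was 0.00882 [0.000221, 0.0503] on 99 and 1 counts. Brackets hold 95% counting intervals. For Cxcl5 and Ppp1r3b the WT left ventricle stood apart with 8 and 5 counts, against 42 to 620 and 61 to 278 in the other 7 libraries.

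Among genes lower in the WT border zone were the adipocyte genes Adipoq with 0.190 (TKO 5.24), Cfd with 0.262 (TKO 5.855) and Cidec with 0.154 (TKO 6.985). Pck1 with 0.0725 (TKO 5.24) and Cyp2e1 with 0.110 (TKO 5.51) went the same way. For these genes the WT left ventricle was the highest and the TKO left ventricle the lowest of the 8 libraries. The remaining genes were Cxcl13 with 0.110 (TKO 6.985), Cdkn2a with 0.164 (TKO 9.51), Acap2 with 0.137 (TKO 134.9 [37.0, 1119], on 2 and 309 counts) and Rprd2, which had 145 counts in the WT left ventricle and 0 in the WT border zone, at least 54.3-fold lower against a floor of 3 counts (TKO 50.6 [8.74, 2034], on 1 and 58 counts).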

How the results depend on the processing

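The counts of 701 higher and 238 lower genes moved by more than 1.5-fold with the filter and the fold limit. Without a filter they were 1338 and 908, with a mean CPM of at least 5 they were 348 and 80, and at 1.5-fold they were 1596 and 847. Total-count scaling gave 911 and 175, moved the median of all genes by 0.14 on the log2 scale and raised the higher share of calls from 74.7% to 83.9%. It also took the medians of the mitochondrial DNA, calcium cycling, cardiac transcription factor and integrated stress response lists to the other side of 1. Leaving out genes that switch off gave 599 and 214, and leaving out adipocyte, atrial, skeletal muscle and immunoglobulin genes gave 680 and 233. Both were chosen after seeing the data. No called gene among those named changed direction under the other scalings, filters and prior counts, but this outcome was fixed beforehand. Filters leave a ratio unchanged and prior counts cannot move it across 1. The scalings shifted the median by at most 0.14 on the log2 scale, less than the limit for a call. Against the TKO left ventricle, 473 of the 701 and 97 of the 238 genes kept a 2-fold difference in the same direction. Over all genes 7.91% were called higher and 2.17% lower in that comparison. It shares the WT border zone library that chose these genes, so part of the agreement was fixed beforehand. No paired analysis was possible because each group is 1 library. For the same reason no replicate could be left out. The floor of 3 counts was 0.109 CPM in the left ventricle and 0.0974 CPM in the border zone.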

Other observations

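The WT left ventricle library was itself the extreme of the 8 libraries for many called genes. It was the lowest of all 8 for 339 of the 701 higher genes and the highest of all 8 for 115 of the 238 lower genes. The level in that library also chose the called genes, which by itself makes it an extreme more often. These counts are therefore a description, and the share over all genes was not computed. The tendon gene Tnmd had 1 count for WT left ventricle, 116 for WT border zone, 182 for WT infarct and 171 for TKO infarct. The water channel Aqp2 had 4, 148, 221 and 147 counts in the same libraries. The keratin genes Krt8 and Krt18, which line mesothelium and other epithelia, had WT border zone ratios of 13.1 [7.88, 23.2] and 2.67 [1.90, 3.81], while the mesothelial gene Upk3b was 0.720 [0.546, 0.948]. Sox10, which marks Schwann cells, had 54 counts in WT left ventricle tissue and 0 in the border zone of both genotypes. It was the only 1 of 4 measured Schwann cell genes called in the WT pair. Of the 4, 3 had WT ratios below 1 and 1 above, and in the TKO pair 2 were below 1 and 2 above.

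Clock genes had a median ratio of 1.14 with none of 17 called, whereas 7 were called higher and 2 lower in the TKO pair. The immediate early gene Fos had a WT ratio of 2.98 [2.17, 4.14] and Zfp36 one of 0.444 [0.395, 0.499].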
